A study of Homo sapiens with 4 samples.

Results

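Close narrow peak pairs on opposite strands were taken from the peak lists of a SAF-A CLIP-seq experiment in HCT116 cells. Peaks of 20 bases or less were kept in each list and sorted along each chromosome with both strands together. Neighbouring peaks on opposite strands formed a pair when the gap between them was from 0 to less than 1000 bases. This gave 1716 pairs from 278959 listed peaks, namely 83 and 158 pairs in the inputs (replicates 1 and 2), against 684 and 791 for the pull-downs (likewise). The pairs were thus chosen by peak width, strand and distance, so these values are given as a description and support nothing else.

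SAF-A, also called hnRNP U, is an abundant nuclear protein that binds RNA and chromatin, and HCT116 is a widely used cell line from a human colorectal carcinoma. CLIP-seq crosslinks RNA to protein with ultraviolet light and sequences the RNA recovered with the protein. The study had 2 input and 2 pull-down libraries, and the labels name no genetic change or treatment of the cells. Cleared lysates of crosslinked cells were split, and the pull-down share was bound to a monoclonal SAF-A antibody on beads while the input share was not. RNA of both kinds was taken from the same size range of a blot, at and above the size of SAF-A. The lists hold no expression values, so the identity of the cells was not checked here.

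A peak on the plus strand and a peak on the minus strand mark RNAs copied from opposite strands of the DNA. Such RNAs lie close together where a gene overlaps an antisense transcript, where genes start back to back or end facing each other, and on the mitochondrial genome, both strands of which are copied into long RNAs that span many genes. With the minus-strand peak first (at the lower coordinate) the RNAs point away from each other, and with the plus-strand peak first they point towards each other.

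Positions are as in the files, 1-based, and were taken as GRCh37. The submitters' processing notes name GRCh38, but 1214 of 278492 nuclear peaks reach beyond the last base of their GRCh38 chromosome, and 0 beyond that of GRCh37. With no GRCh37 genome or annotation used here, nuclear pairs were not assigned to genes and no sequence is given. The inputs listed 19238 and 24716 narrow peaks, the pull-downs 65615 and 71107. Read depth is unknown, and a longer list can come from deeper sequencing. The labels do not say whether replicates came from separate cultures. The p-values below therefore reflect the spread of these particular libraries, possibly a technical one. The smallest p that a two-sided exact permutation test can reach with 2 against 2 libraries is 0.333.

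The first comparison asked how often narrow peaks had a close partner on the other strand. In whole lists the pull-downs held more pairs, also for their number of narrow peaks, but this order turned around in lists of equal length. The inputs had 4.31 and 6.39 pairs per 1000 narrow peaks, the pull-downs 10.4 and 11.1. The means were 5.35 ± 1.47 and 10.8 ± 0.5 (SD, n = 2 each), a ratio of 2.01, and the groups did not overlap (exact permutation p = 0.333). When each list was shortened to its 19238 best-scoring narrow peaks, the inputs held 83 and 100 pairs and the pull-downs 68 and 57. Pairs per 1000 narrow peaks were then 4.76 in the inputs and 3.25 in the pull-downs on average. Of these pairs, 62 and 74 in the inputs, against 68 and 57 for the pull-downs were nuclear, so that the groups overlapped. A higher frequency of pairs in the pull-downs was therefore seen only in the longer whole lists.

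The strands of close neighbours were compared next. Among nuclear narrow neighbours with a gap below 1000 bases, 62 of 456 and 113 of 711 lay on opposite strands in the inputs, and 684 of 2324 and 789 of 2888 in the pull-downs. These are shares of 13.6% (95% exact interval 10.6 to 17.1) and 15.9% (13.3 to 18.8) in the inputs. In the pull-downs they were 29.4% (27.6 to 31.3) and 27.3% (25.7 to 29.0). Both pull-downs lay above both inputs, with means of 28.4% ± 1.5 and 14.7% ± 1.6 (SD, n = 2 each; exact permutation p = 0.333). Intervals here cover counting error only. With equal list lengths the nuclear shares were 13.6% and 16.1% for the inputs, then 29.96% and 24.7% for the pull-downs. There the shares differed through same-strand neighbours, of which the inputs held 394 and 385 and the pull-downs 159 and 174. The opposite-strand pairs in the same lists overlapped, as given above.

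**Figure D1:**
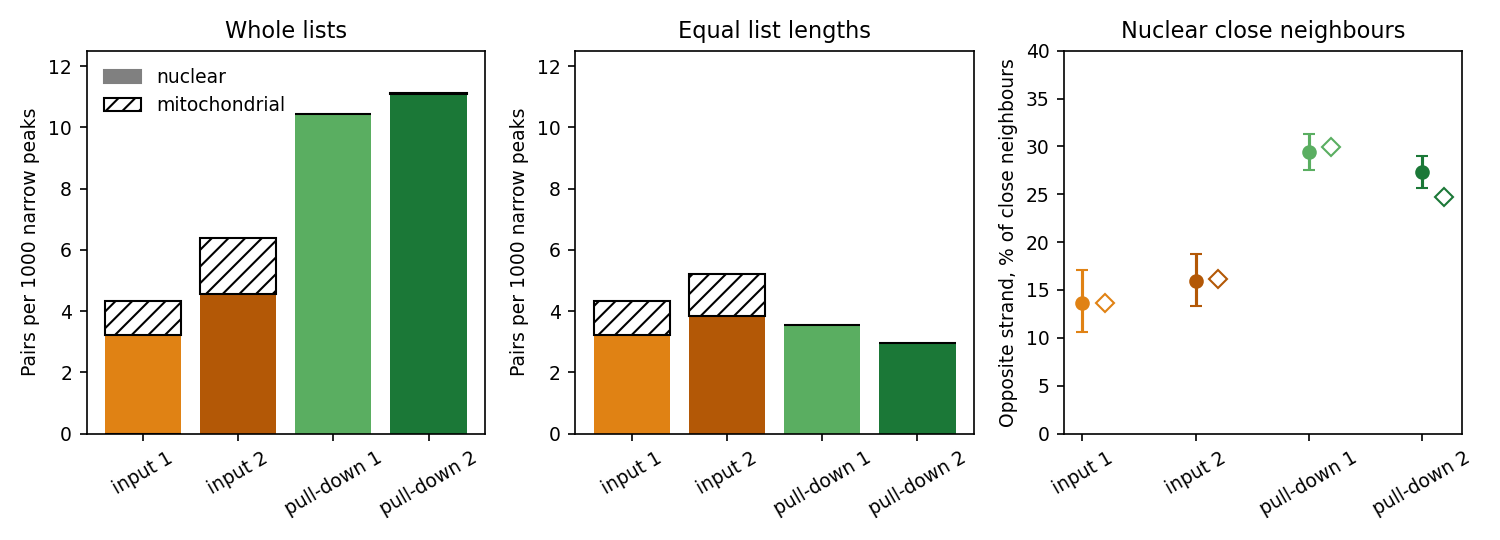
Left and middle, opposite-strand pairs per 1000 narrow peaks in each library, for whole lists and for lists of equal length, with the mitochondrial part hatched. Right, the percent of nuclear close neighbours that lie on opposite strands (circles, whole lists with 95% exact intervals; diamonds, lists of equal length). The pull-downs are higher than the inputs on the left (10.4 and 11.1 against 4.31 and 6.39) and on the right (29.4% and 27.3% against 13.6% and 15.9%), but not in the middle.

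Close neighbours on the same strand were nearly as frequent per narrow peak in the whole lists of both kinds. The inputs held 466 and 715 of them, the pull-downs 1660 and 2131. Per 1000 narrow peaks this was 24.2 and 28.9 against 25.3 and 29.97, so the groups overlapped. On nuclear chromosomes alone it was 20.6 and 24.4 against 25.004 and 29.5, without overlap. In the inputs they lay closer together, with nuclear median gaps of 171 and 183 bases against 417 and 399 in the pull-downs. The share on opposite strands depended on distance. Below 100 bases, 4.46% and 5.49% of nuclear neighbours were on opposite strands in the inputs, against 21.8% and 19.2% in the pull-downs. The rise with distance went on past the limit that defined a pair. Between 1000 and 2000 bases the shares were 39.3% and 29.1% in the inputs, against 35.3% and 35.2% for the pull-downs, where the groups overlapped. From 2000 to 5000 bases all 4 libraries lay between 38.9% and 40.3%, and above 100 kb between 48.1% and 49.2%. Near the limit itself, the number of opposite-strand neighbours with a gap from 900 to below 1000 bases was 7 and 10 in the inputs, against 67 and 78 for the pull-downs. From 1000 to below 1100 bases it was 6, 10, 67 and 87 in that order. Allowing peaks of up to 22 bases would have given 93, 170, 761 and 880 pairs.

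**Figure D2:**
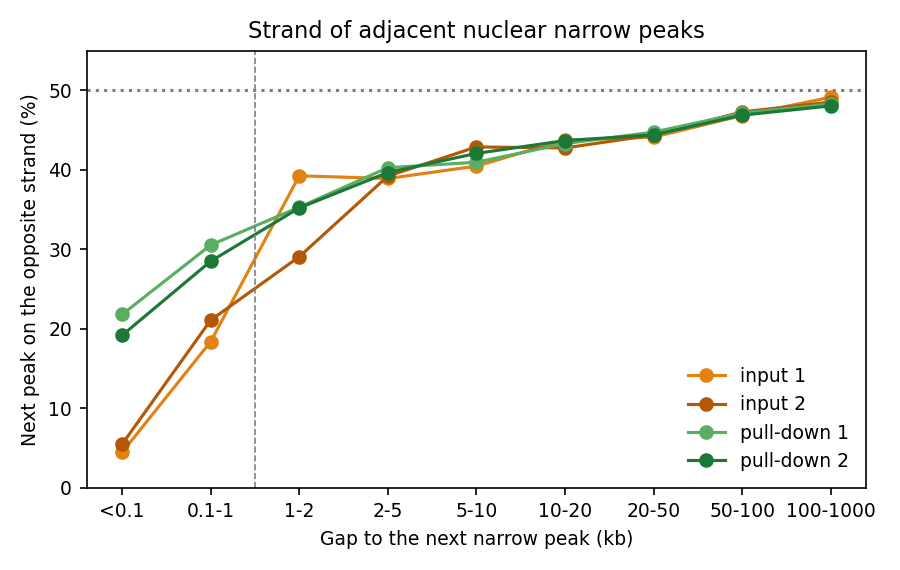
Percent of adjacent nuclear narrow peaks that lie on opposite strands (vertical axis) by the gap between them in kb (horizontal axis, unequal steps), 1 line per library. The dashed line marks the limit of 1 kb and the dotted line 50%. Below 0.1 kb the inputs are at 4.46% and 5.49% and the pull-downs at 21.8% and 19.2%; from 2 kb on the 4 lines run together.

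Mitochondrial RNA made up the largest difference in location. Of the input pairs, 21 of 83 and 45 of 158 lay on the mitochondrial genome, and of the pull-down pairs 0 of 684 and 2 of 791. The shares were 25.3% (95% exact interval 16.4 to 36.0) and 28.5% (21.6 to 36.2) in the inputs and 0% (0 to 0.538) and 0.253% (0.031 to 0.910) in the pull-downs. The means were 26.9% ± 2.2 and 0.126% ± 0.179 (SD, n = 2 each; exact permutation p = 0.333). Mitochondrial peaks as such were also rarer in the pull-downs, at 0.038% and 0.056% of narrow peaks against 0.499% and 0.672% in the inputs. Within the mitochondrial peaks, paired ones were rarer too. Out of 96 and 166 narrow mitochondrial peaks in the inputs, 33 and 69 belonged to a pair, against 0 of 25 and 4 of 40 in the pull-downs.

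Most mitochondrial pairs of the inputs lay in protein genes, all of which encode parts of the respiratory chain or of ATP synthase. Both peaks did so in 18 of 21 pairs of replicate 1 and 42 of 45 of replicate 2, and the other 3 in each had a peak in a tRNA gene or in no gene. Genes were taken from RefSeq on GRCh38.p14, by the midpoint of each peak and on either strand, on the assumption that both builds carry one mitochondrial sequence. From the start of ND4, a subunit of complex I, to the end of CYTB, which encodes cytochrome b of complex III, lay 16 of the 21 pairs of input replicate 1 and 25 of the 45 of replicate 2. Both peaks fell in ND4 in 8 and 8 pairs, in ND6 in 3 and 5, and in CYTB in 3 and 6. In COX3, a subunit of cytochrome c oxidase, they did so in 1 and 7 pairs. ND6 is known as the protein gene read from the other strand than the rest. The 2 rRNA genes, by contrast, held no pair. RNR1, RNR2 and the tRNA gene between them had 39 and 51 narrow plus-strand peaks in the inputs and 0 on the minus strand. All narrow minus-strand peaks, 30 and 47, lay outside them, where the plus strand had 27 and 68. Of the minus-strand peaks, 63.3% and 70.2% were in a pair, and of the plus-strand peaks 21.2% and 30.3%.

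In the pull-downs the plus-strand partners were the scarcer ones. Outside the rRNA genes they listed 8 and 15 narrow minus-strand peaks and only 1 and 5 on the plus strand. Inside the rRNA genes they listed 16 and 20 plus-strand peaks. Leaving out neighbours within the rRNA genes, 21 of 55 and 45 of 112 close mitochondrial neighbours were on opposite strands in the inputs, and 0 of 5 and 2 of 15 in the pull-downs. The numbers for the pull-downs are too small to set these shares apart.

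The mitochondrial pairs also formed runs in which the strands alternated. In the inputs 9 and 21 mitochondrial peaks belonged to 2 pairs each, against 0 and 2 nuclear peaks. The longest run held 4 pairs in replicate 1 and 5 in replicate 2, whereas no nuclear run in any library was longer than 2. The median gaps of the mitochondrial input pairs were 65 and 60 bases, and those of same-strand mitochondrial neighbours in the inputs were 71.5 and 47. Pairs listed in both inputs numbered 6. The closest of them lay in ND4, with a plus-strand peak from 11134 to 11146 and a minus-strand peak from 11150 to 11166, a gap of 3 bases in replicate 1 and of 4 in replicate 2. Another lay in ND6, with a plus-strand peak from 14255 to 14270 and a minus-strand peak from 14289 to 14293, a gap of 18 bases in both inputs. It scored 16 and 17 in replicate 1 and 23 and 20 in replicate 2. It was the single pair of the whole genome listed in both inputs of which neither peak overlapped a pull-down peak. The score is the authors' own whole number per peak, whose meaning is not stated, and is compared only within a list. Of the others, 2 also lay in ND6 and 2 began or ended in CYTB.

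The next comparison asked whether the gaps differed. Over all pairs the median gap was shorter in the inputs, with 354 and 329 bases against 525.5 and 495 in the pull-downs. Gaps below 100 bases made up 22.9% and 24.7% of input pairs and 9.503% and 9.10% of pull-down pairs. The difference rested on the mitochondrial pairs of the inputs, of which 57.1% and 57.8% had gaps below 100 bases. Among same-strand mitochondrial neighbours of the inputs this share was 61.1% and 71.8%, so short gaps there were not particular to the pairs. Among nuclear pairs the median gaps were 487 and 489 bases in the inputs, against 525.5 and 495 for the pull-downs. Nuclear gaps below 100 bases made up 11.3% and 11.5% of input pairs against 9.503% and 8.999% of pull-down pairs. For both nuclear measures the groups did not overlap (exact permutation p = 0.333, the smallest that this test can reach). The exact intervals of the input shares, 4.66 to 21.9 and 6.27 to 18.9, hold the pull-down values. These intervals cover counting error within a library and do not compare the groups. Neither value decides whether the kinds differ.

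**Figure D3:**
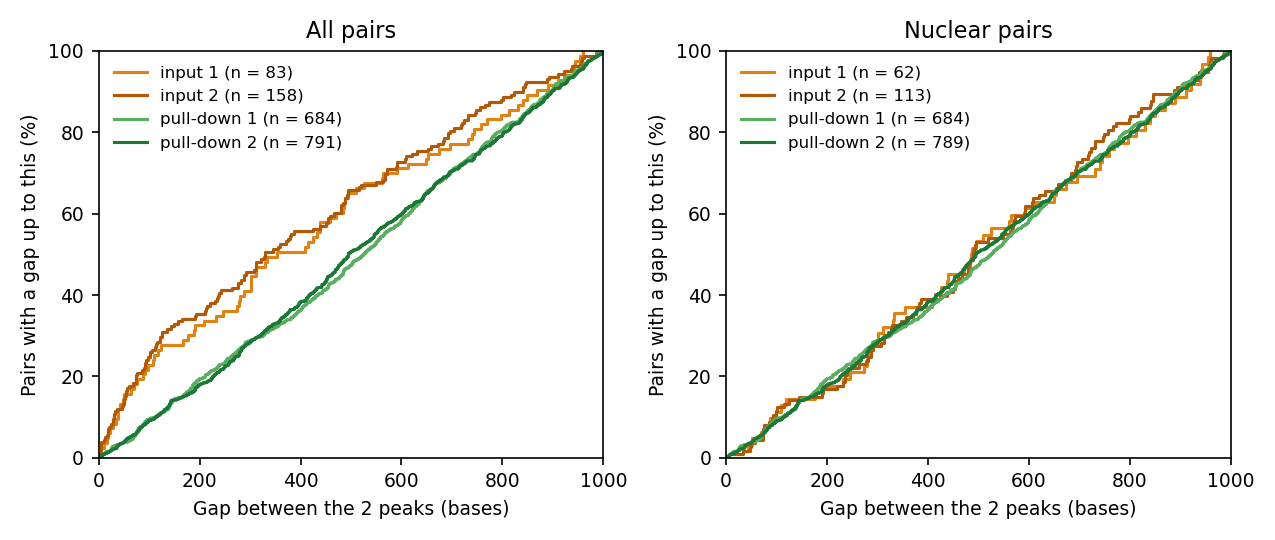
Cumulative percent of pairs (vertical axis) by gap in bases (horizontal axis), 1 line per library, for all pairs on the left and for nuclear pairs on the right. With all pairs the inputs (medians 354 and 329 bases) rise earlier than the pull-downs (525.5 and 495); without mitochondrial pairs the input medians are 487 and 489 bases and the 4 lines run together.

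For a test over gap and strand order, pairs were counted in steps of 50 bases for each order and expressed as log2 of pairs per 1000 pairs with 0.5 added to each count. In limma 2 of the 28 classes with a mean of at least 10 pairs were called at a Benjamini-Hochberg adjusted p of 0.05 (7.14% of those tested), both lower in the pull-downs. They were minus-first pairs with gaps of 0 to 49 bases (7 and 9 input pairs, 20 and 24 pull-down pairs; log2 ratio -1.27, SE 0.22, adjusted p = 0.0076) and of 50 to 99 bases (5 and 10 against 19 and 21; log2 ratio -1.25, SE 0.19, adjusted p = 0.0059). Without the mitochondrial genome 0 of 26 classes were called in limma, with 11 at an unadjusted p under 0.05, and the class of 0 to 49 bases had a log2 ratio of -0.24 (adjusted p = 0.52). The class of 50 to 99 bases stayed lower without a call, at -0.91 (SE 0.24, adjusted p = 0.076). Leaving out pull-down replicate 1 also ended both calls (adjusted p = 0.17 and 0.10), with log2 ratios of -1.25 and -1.29. With mitochondrial pairs included, the calls were not particular to the minus-first order. Plus-first pairs with gaps of 0 to 49 bases (5 and 12 in the inputs, 5 and 6 in the pull-downs) did not reach the minimum mean of 10. In limma they were called lower without that minimum (log2 ratio -3.16, adjusted p = 0.0023) and with peaks up to 30 bases (-3.54, adjusted p = 4.88e-04). In steps of 100 bases, plus-first pairs below 100 bases were called lower as well (-1.56, adjusted p = 1.27e-04). Each of these plus-first fits included mitochondrial pairs. Below 50 bases, 5 and 11 of the plus-first input pairs were mitochondrial. Nuclear plus-first pairs there numbered 0 and 1 for the inputs, against 5 and 6 for the pull-downs. A nuclear difference in that class was not tested.

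Strand order was balanced over all pairs. The plus-strand peak came first in 48.2% and 53.8% of input pairs and in 48.4% and 48.8% of pull-down pairs, and the groups overlapped. At the shortest nuclear gaps the order was not balanced. With a gap below 50 bases the minus-strand peak came first in 20 of 25 pairs in pull-down replicate 1, or 80% (95% exact interval 59.3 to 93.2), and in 23 of 29 in replicate 2, or 79.3% (60.3 to 92.01). The inputs had 2 of 2 and 3 of 4 such pairs. From 50 bases on the shares were 50.5% (46.6 to 54.4) and 50.1% (46.5 to 53.7) in the pull-downs. This excess was chosen for description after the values had been seen, and the pull-downs share some of these places. Over both pull-downs it came from 34 distinct minus-first and 11 plus-first places. With peaks of at most 15 bases the minus-first numbers were 16 of 20 and 14 of 18, and with peaks of at most 30 bases 29 of 34 and 32 of 41. The mitochondrial pairs of the inputs had no such order at these gaps, with 5 of 10 and 6 of 17 minus-first.

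**Figure D4:**
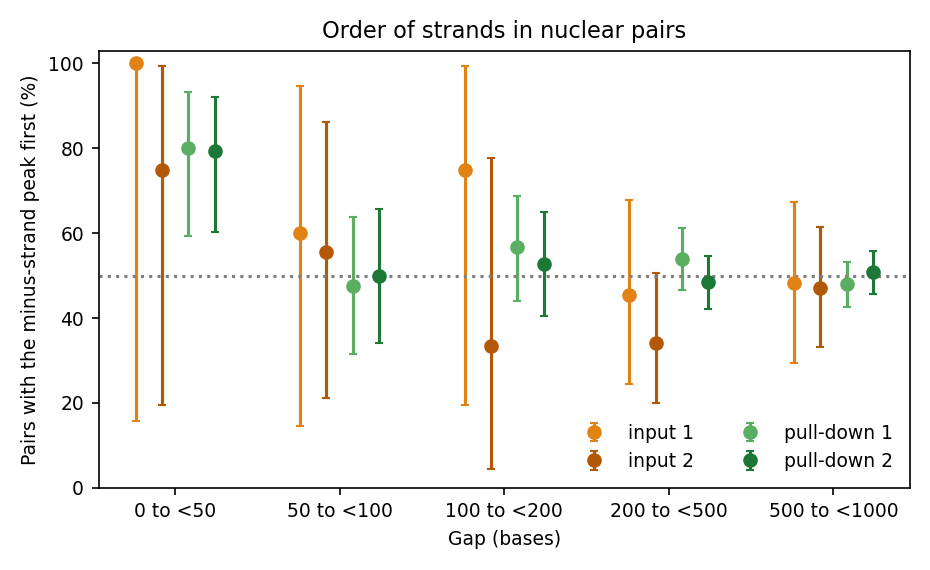
Percent of nuclear pairs with the minus-strand peak first (vertical axis) by gap in bases (horizontal axis), with 95% exact intervals, 1 point per library. Below 50 bases the pull-downs are at 80% and 79.3%, above the dotted line at 50%, and the inputs rest on 2 and 4 pairs; from 50 bases on the intervals of both pull-downs include 50% in every step.

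Of the minus-first places below 50 bases, 9 were listed as pairs in both pull-downs, on 9 chromosomes, and of the plus-first places 0. The gaps of the shared pairs were 1 to 42 bases in replicate 1 and 2 to 40 in replicate 2. The best-ranked lay on chromosome 12, with a minus-strand peak from 41342094 to 41342106 and a plus-strand peak from 41342135 to 41342144. It scored 51 and 22 in replicate 1 and 25 and 16 in replicate 2. The tightest lay on chromosome 6, with a minus-strand peak from 6906727 to 6906737 and a plus-strand peak from 6906739 to 6906747, a gap of 1 base in replicate 1 and of 2 bases in replicate 2. Its scores were 15 and 32, and 20 and 29. An input listed 1 of the peaks in 7 of the 9 pairs and both in 0. These pairs were picked out after their values had been seen.

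Recurrence asked whether a pair was found again, with both peaks overlapping a peak of another library by at least 1 base on the same strand. Of nuclear pairs in pull-down replicate 1, 42.0% (95% exact interval 38.2 to 45.8) had both peaks in replicate 2, 45.5% had 1 and 12.6% neither. In the other direction the shares were 37.6% (34.3 to 41.1), 47.7% and 14.7%. Between the pull-downs, paired peaks were found again about as often as narrow peaks in general. In replicate 2 were 64.7% of the paired peaks of replicate 1 and 68.0% of all its nuclear narrow peaks. In the other direction the shares were 61.5% and 61.8%. Paired nuclear peaks of the inputs were found less often than their nuclear narrow peaks in general in every comparison. For input replicate 1 the shares were 71.8% against 79.7% in the other input, and for replicate 2 they were 54.4% against 58.8%. In the pull-downs they were 73.4% and 75% against 80.6% and 81.1% for replicate 1, and 65.0% and 68.1% against 80.1% and 80.9% for replicate 2. These differences were not tested. As a pair by the same rule, 212 places were listed in both pull-downs, or 31.0% and 26.9% of the nuclear pairs of replicates 1 and 2.

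Of nuclear pull-down pairs 3.2% to 6.1% had both peaks in a given input, and 29.4% to 41.2% had 1. Single peaks were found there at 17.9% to 26.6% when paired and at 18.5% to 27.7% over all narrow peaks. The square of the share for paired peaks was 3.19% to 7.08%, so the value for pairs is near that from single peaks and shows nothing about the pairs. Input pairs were found again more often in the longer pull-down lists than in each other. For input replicate 1, both peaks of a nuclear pair were present in 48.4% (35.5 to 61.4) of cases in replicate 2, and in 58.1% and 59.7% in the pull-downs. For input replicate 2 these shares were 31.0% in replicate 1, and 46.9% and 50.4% in the pull-downs. The list lengths differ, which limits what can be found in 1 direction. In whole lists a peak of any width could match, but in the lists of equal length only narrow peaks could, so both length and width changed. With lists of equal length, nuclear input pairs were found in the other input at 35.5% and 31.1% and in a pull-down at 16.1% to 19.4%. This order was not particular to the pairs. All nuclear narrow input peaks of these lists were found in the other input at 63.5% and 63.6%, and in a pull-down at 41.8% to 45.2%. The square of the share for paired peaks was 35.6% and 29.2% for the other input, and 8.84% to 14.98% for a pull-down. Nuclear pull-down pairs were found at 19.1% and 22.8% in the other pull-down and at 17.6% to 22.8% in an input. The equal lists held only 57 to 74 nuclear pairs each.

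Few mitochondrial pairs of the inputs had both peaks in a pull-down. Both peaks were in the other input for 12 of 21 pairs of input replicate 1 and 10 of 45 of replicate 2. In pull-down replicate 1 they were found for 0 of 21 and 0 of 45 pairs, and in replicate 2 for 1 of 21 and 1 of 45. Narrow mitochondrial peaks of input replicate 1 were found in pull-down replicates 1 and 2 at 29.2% and 34.4%, and those of input replicate 2 at 18.7% and 27.1%. The square of the share for paired peaks was 4.59% and 8.16%, and 2.42% and 4.94%. The values for pairs are thus near those from single peaks and show nothing about the pairs. As pairs, 0 of the mitochondrial places of the inputs were listed in a pull-down.

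**Figure D5:**
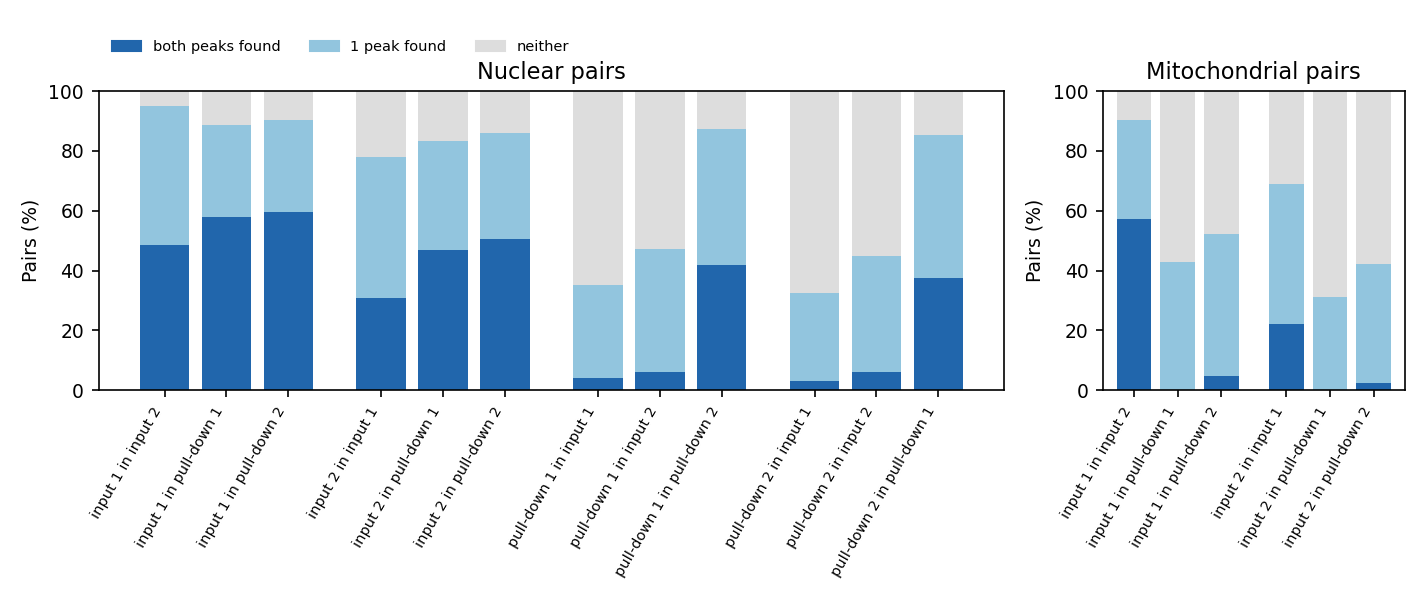
Percent of pairs of the first-named library with both, 1 or neither of their peaks overlapping a peak of the second-named library (whole lists), for nuclear pairs on the left and for mitochondrial pairs of the inputs on the right. The other pull-down listed both peaks for 42.0% and 37.6% of pull-down pairs and an input did so for 3.2% to 6.1%; mitochondrial input pairs had at most 1 pair in a pull-down with both peaks found.

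The pull-down pairs were also divided by whether an input listed their peaks. At least 1 input listed 30.2% and 27.7% of all nuclear narrow pull-down peaks, and 29.05% and 28.1% of the paired ones, so mixed pairs, with 1 listed and 1 unlisted peak, are common from these rates alone. Against both inputs together, 298 of 684 and 327 of 789 nuclear pairs (43.6% and 41.4%) were mixed. In 336 and 403 pairs neither peak overlapped an input peak, and in 50 and 59 both did. In the mixed pairs the peak shared with an input scored higher than its partner in 227 and 255 cases and lower in 64 and 68, with medians of 36 against 15 in replicate 1 and 36 against 17 in replicate 2. This was not particular to the pairs. Input replicate 1 listed 20.3% and 18.5% of all nuclear narrow peaks of pull-down replicates 1 and 2. Of the nuclear ones among their 19238 best-scoring narrow peaks it listed 42.8% and 41.5%, although only narrow peaks could match there. In the inputs the mixed pairs, against the pull-downs, numbered 17 and 39, and there the shared peak scored higher in 5 and 21 and lower in 12 and 17. Within their own list, paired nuclear peaks had ordinary scores. Their median percentile among narrow peaks was 53.3 and 55.2 in the inputs, against 49.7 and 49.6 for the pull-downs.

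The strands of the other peaks around each nuclear pair were compared next. For each pair, all other peaks of its list within 50 kb on either side were counted, whatever their width. Pull-down pairs had a median of 4 such peaks in each replicate and input pairs a median of 2. Of the pull-down pairs with at least 5, 89 of 275 and 115 of 347 had at least 80% of them on 1 strand, or 32.4% (95% exact interval 26.9 to 38.2) and 33.1% (28.2 to 38.4). For close neighbours on the same strand this share was 68.8% and 67.8%. These opposite-strand pairs are 275 of 684 and 347 of 789. Both sets were chosen by strand, and close neighbours in a one-sided stretch are mostly on the same strand. A lower share around opposite-strand pairs is therefore built into the choice and shows nothing about the pairs. The shares also depended on the window. Within 10 kb, only 16 and 37 pull-down pairs had 5 other peaks, and most of these, 11 (68.8%) and 28 (75.7%), were one-sided, against 97.4% and 97.0% of same-strand neighbours. The inputs had only 7 and 22 pairs with at least 5 other peaks within 50 kb, of which 5 and 12 were one-sided.

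In the one-sided stretches of the pull-downs, the pair holds a peak on the main strand and a peak against it. Both scored alike, with medians of 20 and 21 in replicate 1 and 20 and 18 in replicate 2 (main strand first). The peak against the main strand was found in the other pull-down at 66.3% and 59.1%, and the main-strand peak at 58.4% and 55.7%. In an input the peak against the main strand was found at 31.5% (22.03 to 42.2) and 32.2% (23.8 to 41.5), and the main-strand peak at 19.1% (11.5 to 28.8) and 20.0% (13.1 to 28.5). The intervals overlap in each replicate. Wider peaks seldom lay between the members of a nuclear pair, in 1 and 5 input pairs and in 8 and 11 pull-down pairs.

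Location was to be tested in regions of 10 Mb, but only the mitochondrial genome reached a mean of 10 pairs, and no nuclear region passed 4.5. Chromosomes were therefore used as features. In limma, on log2 of pairs per 1000 pairs with 0.5 added, 3 of 22 chromosomes with a mean of at least 10 pairs were called at an adjusted p of 0.05 (13.6% of those tested). The mitochondrial genome was lower in the pull-downs, with a log2 ratio of -7.49 (SE 0.70, adjusted p = 1.73e-12). Without input replicate 1 or 2 its adjusted p was 0.055 and 0.058, and its log2 ratio was -7.57 and -7.41. Its pull-down value rests on 0 and 2 pairs, so the fitted ratio depends on the 0.5 added.

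Chromosome 15 was called higher, with 24 and 27 pull-down pairs and 0 in either input (adjusted p = 0.0092). Its part of all narrow peaks was alike in both kinds, 2.99% in either input against 2.94% and 2.97% in the pull-downs. With a chosen floor of 3 pairs over both inputs, its share of all pairs was 2.78-fold higher in the pull-downs. That share counts mitochondrial pairs, which lower the input value, so it is not a lower bound for nuclear pairs. Chromosome 8 was also called higher, with 2 and 0 input pairs and 34 and 29 pull-down pairs (adjusted p = 0.026). Without either pull-down replicate the calls of both chromosomes were lost (adjusted p = 0.68 and 0.74 for each) while the log2 ratios stayed near those of all libraries, at 2.99 and 3.04 (3.01 with all) for chromosome 15 and 1.93 and 2.37 (2.15 with all) for chromosome 8. The call of chromosome 8 was also lost without input replicate 2 (adjusted p = 0.20) and with peaks up to 15 or 30 bases (adjusted p = 0.50 and 0.14). Because mitochondrial pairs fill part of the input lists, the fit was repeated on nuclear pairs. Of 21 chromosomes 2 were then called (9.52%). Chromosome 15 remained higher (log2 ratio 2.56, adjusted p = 0.0059). Chromosome 14 was called lower, with 3 and 11 input pairs and 13 and 19 pull-down pairs (log2 ratio -1.78, SE 0.54, adjusted p = 0.021). Chromosome 8 was not called (adjusted p = 0.076). In limma over all pairs chromosome 14 was not called (log2 ratio -1.33, adjusted p = 0.090), nor with the replicate number as a block (0.16). It was called with peaks up to 30 bases (0.036), with unshared peaks (0.024) and with 1 added to each count (0.033). With 1 library left out its log2 ratio ranged from -1.72 to -0.93. Over all pairs, mitochondrial ones included, the shares did not overlap between groups for 15 of 25 chromosomes (60%), 12 higher and 3 lower in the pull-downs. Mitochondrial pairs made up 25.3% and 28.5% of the input pairs, which lowers the input share of every nuclear chromosome. The count was not repeated on nuclear pairs, so it does not show how many nuclear chromosomes differ.

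A set of 10 places were pairs in all 4 libraries, all nuclear, 6 with the plus strand first and 4 with the minus strand first. Their gaps ran from 98 to 939 bases in input replicate 1, with a median of 595.5. The best mean score rank belonged to a minus-first pair on chromosome 2, with peaks from 156577298 to 156577307 and from 156578247 to 156578257 in input replicate 1. Its first peak scored 29, 40, 108 and 105 and its second 44, 34, 89 and 89 in the order input 1, input 2, pull-down 1 and pull-down 2. The gap was 939, 936, 930 and 929 bases. In each list both peaks thus stood well above the lowest listed score of 10.

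The next was a plus-first pair on chromosome 2 with the shortest gap of the set, 98, 98, 92 and 98 bases. Its peaks ran from 60797206 to 60797217 and from 60797316 to 60797325. The plus-strand peak scored higher than its partner in every library, with 115, 82, 114 and 102 against 19, 23, 69 and 83. A plus-first pair on chromosome 6 (130212894 to 130212902 and 130213793 to 130213806) had the opposite imbalance, with 13, 30, 40 and 43 on the plus strand and 57, 110, 119 and 108 on the minus strand. Another plus-first pair lay on chromosome 2 (38123051 to 38123055 and 38123788 to 38123796), with a gap of 732 bases in 3 libraries and of 721 in pull-down replicate 2. A minus-first pair on chromosome 5 (117916965 to 117916974 and 117917886 to 117917893) had gaps of 911, 911, 905 and 903 bases. A plus-first pair on chromosome 10 (52037823 to 52037835 and 52038124 to 52038133) had gaps of 288, 288, 275 and 282 bases.

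Of the 212 places listed as pairs in both pull-downs, 75 had neither peak overlapping an input peak. Among all nuclear pull-down pairs this held for 49.1% and 51.1%, a larger part than among the shared places. The 75 had 43 plus-first and 32 minus-first pairs and a median gap of 600 bases. The best-ranked of the 75 was a plus-first pair on chromosome 12, from 20489573 to 20489584 and from 20489776 to 20489791, with gaps of 191 and 192 bases. Its peaks scored 27 and 39 in pull-down replicate 1 and 40 and 35 in replicate 2. A minus-first pair on chromosome 8 (109041323 to 109041338 and 109042329 to 109042339) had gaps of 990 and 988 bases. The others named by the rule were minus-first pairs on chromosome 6 (92094067 to 92094079 and 92095004 to 92095015; gaps of 924 and 925 bases) and on chromosome 7 (85999710 to 85999723 and 86000667 to 86000680; gaps of 943 and 940 bases). Of nuclear pairs, 26 were listed in both inputs, and for 0 of these were both peaks missing from the pull-downs. Over all nuclear input pairs both peaks were missing there for 6 of 62 and 14 of 113. The pull-down lists were longer, which by itself leaves fewer input pairs without a pull-down peak.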

How the data were processed

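The authors deposited 1 peak list per sample, with a score of unstated meaning per peak, so peaks were called per sample. STAR, featureCounts and GRCh38 are listed in the submitters' processing notes. How peaks were called is not given in the sources used here. Positions fit GRCh37 by chromosome lengths taken from general knowledge.

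Pairs were built with pandas 2.3.3 in Python 3.11.15, on whole lists, with the widest narrow peak at 20 bases. Group values are means ± SD over 2 libraries, with two-sided exact permutation tests. Feature tests used limma 3.58.1 (lmFit, eBayes with trend) in R 4.3.3 with Benjamini-Hochberg adjustment, and were tested on simulated data. Intervals are 95% exact binomial (Clopper-Pearson). The test over chromosomes and the comparisons of neighbourhood and short-gap order were added after the data had been seen. The members and lists were chosen with earlier results of these data known. Named pairs are the 6 best by mean score rank found as pairs in all 4 libraries, the 4 best in both pull-downs without an input peak, and likewise for the inputs, where 1 qualified. Replicate numbers are shared between groups, but the labels do not say that they mark a shared lysate. Alternatives were other width and gap limits, equal list lengths, no mitochondrial genome, unshared peaks, a stricter overlap, other counts added or required and each library left out.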

Additional observations from a re-analysis of the deposited data

How the results depend on the processing

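Differences are pull-down minus input. The opposite-strand share of close neighbours, the median gap, the share of gaps under 100 bases and the mitochondrial share of pairs kept their direction under every alternative run for them. With every list cut to one length, the difference in pairs per 1000 narrow peaks reversed to -1.51. Without the mitochondrial genome as well, an alternative added after the data had been seen, it was -0.34. The difference in recurrence (same kind minus other kind) went from 35.3 to -17.5 percentage points. For recurrence the cut lists also held only narrow peaks, whereas in whole lists a peak of any width could match. Plus-first order, at -2.40 points, reversed to 1.43 with peaks up to 15 bases and ranged from -5.20 to 0.40 with 1 library left out. The median score percentile of paired peaks, at 1.04 points, reversed to -0.46 with peaks up to 30 bases, -4.47 without the mitochondrial genome and -1.52 without peaks in other pairs, and ranged from -0.82 to 2.90 with 1 library left out. The cause of these reversals was not tested.

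In limma the 3 called chromosomes became 1 of 12 tested with peaks up to 15 bases, where chromosome 15 was not among those tested. At a minimum mean of 20 pairs 0 of 9 were called, with 2 at an unadjusted p under 0.05. All 3 called chromosomes missed that minimum and were not tested there, so this count says nothing about them. With 1 library left out, the log2 ratio ranged from 2.55 to 3.48 for chromosome 15 and from 0.53 to 3.78 for chromosome 8. For the mitochondrial genome it ranged from -8.55 to -6.43. The 2 called classes of gap and order became 0 without the mitochondrial genome, 0 without peaks in other pairs (5 at an unadjusted p under 0.05), 4 with 1 added to each count, and 0 to 13 with 1 library left out. With the replicate number as a block, 3 chromosomes and 2 classes were called, as without it. Same-numbered libraries deviated from their group means with correlations of 0.18 over chromosomes and -0.06 over classes. With 2 libraries per group these values cannot decide whether equal numbers mark a shared lysate. The main fits did not use the numbers as pairs. Tests in regions of 10 Mb and 5 Mb, and limma on lists of equal length, could not be fitted because fewer than 3 features reached the minimum. The 83 and 158 input pairs limit what can be detected.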
